A study of Mus musculus with 4 samples.

Results

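The 9 genes described here are 2 Ras GTPases (Hras1 and Nras) and 7 genes that the Ras to ERK pathway induces and that mostly act back on it: the phosphatases Dusp4 and Dusp6, the inhibitors Spry2, Spry4 and Spred1, and the transcription factors Etv4 and Etv5. They were chosen by symbol, and all 9 were found among the 22609 genes of the count tables. Hras1 is the older symbol of Hras. RNA was sequenced from mammospheres, floating colonies grown for 7 days from basal mammary cells that had been sorted by flow cytometry from Balb/C mice aged 4 months. Control mice received sesame oil by gavage. The BPA group received bisphenol A (BPA), a building block of plastics that can activate estrogen receptors, daily for 3 weeks from day 21 at a dose of 25 µg/kg/day. The DMBA group received the oil and then a single oral dose of 30 mg/kg 7,12-dimethylbenz[a]anthracene, a chemical carcinogen (DMBA), at 2 months, and the BPA+DMBA group received both agents. All mice were kept on a diet low in phytoestrogens after puberty. Each group was 1 library made from spheres of 5 pooled animals, so no group had replicates. The culture medium of all 4 groups held EGF at 20 ng/mL and basic FGF at 20 ng/mL, together with heparin, insulin and hydrocortisone. Both growth factors act through receptors that activate Ras and ERK, so all 4 libraries come from cells grown under such stimulation.

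Ras proteins are membrane-bound switches that are active when they hold GTP. Growth factor receptors load them through the exchange factors Sos1 and Sos2, and active Ras starts the Raf, MEK and ERK kinase cascade, which drives proliferation and branching of mammary epithelium. ERK then induces its own brakes: Dusp6 and Dusp4 dephosphorylate ERK and related kinases, Sprouty and Spred proteins act upstream on Ras and Raf activation, and Etv4 and Etv5 carry the signal to target genes. Ras genes, Hras above all, are the classical mutation targets of DMBA in rodent tumours. The deposited counts give reads per gene and no bases, so mutations were not measured.

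Of the 9 genes, 6 had a RefSeq promoter sequence (GRCm38.p6), and the 250 bases before the start of Hras1 and Dusp6 are shown because these are the 2 members that rose with DMBA; they are given 5′ to 3′ on the gene's strand. The Hras1 stretch is chr7:141194005-141194254 on the minus strand and the Dusp6 stretch chr10:99262981-99263230 on the plus strand. Capitals mark GC boxes (GGGCGG, either strand) and CCAAT boxes (CCAAT, either strand).
Hras1: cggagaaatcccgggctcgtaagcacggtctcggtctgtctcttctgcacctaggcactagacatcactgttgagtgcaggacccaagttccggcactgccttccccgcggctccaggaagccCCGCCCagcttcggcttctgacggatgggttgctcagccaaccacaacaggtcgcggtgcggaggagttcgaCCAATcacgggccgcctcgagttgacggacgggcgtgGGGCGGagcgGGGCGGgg
Dusp6: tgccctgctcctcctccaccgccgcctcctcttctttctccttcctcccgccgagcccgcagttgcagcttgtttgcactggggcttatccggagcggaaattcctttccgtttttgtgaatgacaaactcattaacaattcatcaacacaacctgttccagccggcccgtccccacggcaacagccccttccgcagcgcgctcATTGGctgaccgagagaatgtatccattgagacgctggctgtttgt
The Hras1 stretch held 3 GC boxes and 1 CCAAT box, with a GC content of 65.6%. The Dusp6 stretch held 1 CCAAT box and no GC box, with a GC content of 56.4%. Over all 32851 promoters of this length, 32.7% held a GC box and 33.8% a CCAAT box, and the median GC content was 52.4%. These 2 motifs were added after 4 others (ETS, CCGGAAGT; AP-1, TGANTCA; CRE, TGACGTCA; the aryl hydrocarbon receptor core, TNGCGTG; both strands) had no match in the 7 promoters of these 6 members (Etv5 has 2), against 2.88%, 6.75%, 1.55% and 4.1% of all promoters. The matches shown did not overlap each other. A match is a description, not a site.

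Counts assigned to genes came to between 15672532 (BPA+DMBA) and 30627055 (control) per library. Defining basal markers were present in every library: Krt5, Krt14 and Trp63 had at least 921 counts in each. The lowest of the 10 basal markers listed, Cnn1 and Myh11, had 27 to 187 and 55 to 641 counts per library. Krt8, a keratin of luminal cells, had at least 10258 counts in each. The summed level of 10 basal markers was 1160, 1310, 3170 and 2600 CPM (a count relative to the library size, as scaled by TMM); here and below, 4 values in a row stand for the control, the BPA, the DMBA and the combined library. That of 10 luminal markers was 2970, 3280, 2680 and 2680, of 8 fibroblast markers 8380, 6240, 5080 and 8530, of 7 endothelial and pericyte markers 325, 261, 332 and 439, and of 10 cell cycle genes 435, 490, 706 and 679. In the additive fit described below, 7 of the basal markers, 2 of the luminal and 1 of the fibroblast rose with DMBA. So did 4 of the endothelial and pericyte markers and all 10 cell cycle genes, and 2 luminal markers fell. Over all genes tested, 6.67% rose and 7.72% fell. The summed level of 6 immune markers was 23.1 to 28.1 CPM, and the leukocyte marker Ptprc had 1 to 3 counts per library. The luminal marker Csn2, a milk protein gene and 1 of the 2 luminal markers that rose, had 2, 0, 162 and 3 counts, so the DMBA library stood apart. Which part these cell type markers have in any result below was not tested, and in pooled spheres fewer cells of a type and less RNA per cell cannot be told apart.

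All 9 members were well detected, with between 544 counts (Spry4 in BPA+DMBA) and 7487 counts (Dusp4 in control) in every library, and all passed the filter on low counts. Per kilobase of exon, Dusp4 had the highest level in control (92.1 CPM per kb), followed by Dusp6 (55.3), Nras (42.2), Spred1 (27.3), Spry2 (20.3), Hras1 (18.7), Etv4 (18.1), Etv5 (8.28) and Spry4 (5.15). Over the 4 libraries the level of Dusp4 ran from 78.4 to 97.1 CPM per kb and that of Dusp6 from 54.9 to 79.3, so these ranges overlapped, and in the DMBA library Dusp6 (79.3) was level with Dusp4 (78.4). Nras and Spred1 overlapped neither each other nor Dusp6. Spry2 (19.2 to 21.5), Hras1 (18.7 to 25.4) and Etv4 (18.1 to 22.6) overlapped too. Spred1 (21.9 to 27.5) overlapped Hras1 and Etv4. The lowest pair, Etv5 (8.28 to 9.55) and Spry4 (4.79 to 7.20), did not overlap.

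**Figure D1:**
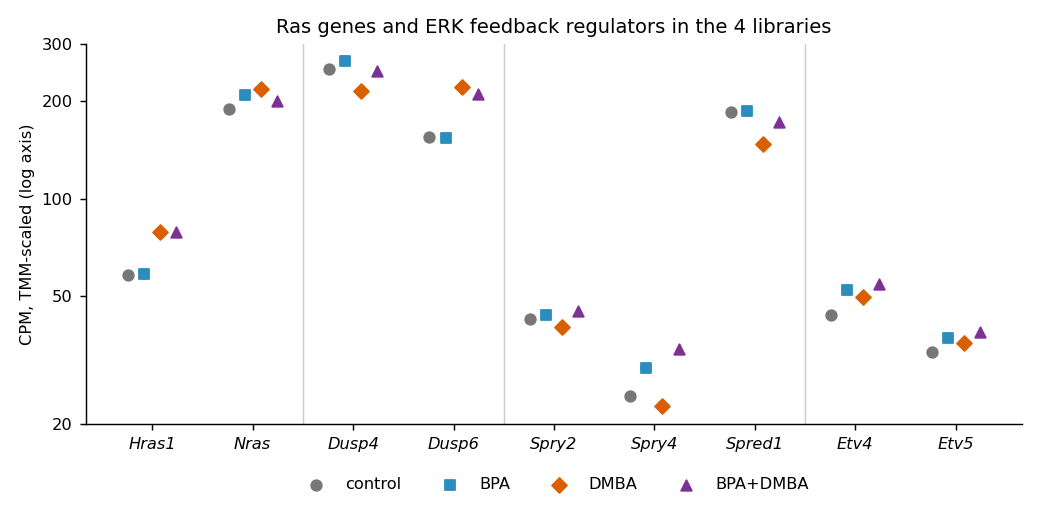
Level of each member in each library, as TMM-scaled CPM on a log axis; each point is 1 library (grey circle control, blue square BPA, orange diamond DMBA, purple triangle BPA+DMBA), and vertical lines separate Ras genes, phosphatases, inhibitors and ETS factors. Hras1 and Dusp6 split into a lower pair without DMBA and a higher pair with it. Dusp4 and Spred1 split the other way over a narrower range, and the points of the other members mix.

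DMBA was compared with its absence in an additive model of BPA and DMBA over the 4 libraries, fitted to all 13638 genes that passed the filter. In edgeR's quasi-likelihood test with Benjamini-Hochberg adjustment, 2 of the 9 members rose, Hras1 and Dusp6, 0 fell and 7 did not pass the threshold of 0.05. Over all genes tested 14.4% passed, 909 higher and 1053 lower, so 2 of 9 is near the background for a set this small. With total counts alone as scaling the same 2 members passed, while the split over all genes was 889 higher and 431 lower, and with the trend on exon length removed it was 497 and 343. At an unadjusted p under 0.05 there were 3 members (Hras1, Dusp6 and Spred1), against 31.1% of all genes. The median change of the 9 was 0.08 on the log2 scale (all genes 0.00), and their median absolute change was 0.12 (all genes 0.19). With 1 library per group the interaction of BPA and DMBA is the only residual degree of freedom and takes the place of replicates. The summed basal and cell cycle markers were also higher in both libraries with DMBA. All 7 endothelial and pericyte markers had values above 0 for DMBA (4 called, median log2 0.85), while most of their summed level was Pdgfrb, at 298, 223, 251 and 366 CPM. The part of these markers in the changes of Hras1 and Dusp6 was not tested.

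Of the Ras genes, Hras1 was at 58.1 CPM in control and 58.6 in BPA, against 78.7 in DMBA and 78.5 in BPA+DMBA. The libraries with DMBA were both higher than the libraries without it, with almost no spread inside either pair. The libraries of a pair differ in BPA and are not replicates. Alike BPA ratios also make the residual of the additive fit small, so they are no separate support for the call of Hras1. Hras1 rose by a log2 change of 0.43 (SE 0.0729, 1.35-fold, edgeR adjusted p = 0.016), and 11.8% of all genes had a change at least as high. Its log2 ratio was 0.44 in DMBA against control (95% counting interval 0.35 to 0.53) and 0.42 in BPA+DMBA against BPA (0.30 to 0.54), pairs that share no library. DESeq2 gave Hras1 the same change without a call (log2 0.43, adjusted p = 0.152).

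Nras, the other Ras gene, stood at 189 CPM in control and 209 in BPA, and 218 in DMBA and 201 in BPA+DMBA. Control was the lowest library, and the pairs with and without DMBA overlapped. The additive log2 change was 0.08 (SE 0.0893, edgeR adjusted p = 0.6). Nras was higher in DMBA than in control (log2 ratio 0.21, counting interval 0.16 to 0.26) but not in BPA+DMBA against BPA (-0.06, interval -0.13 to 0.01). Whether the changes of Hras1 and Nras differ from each other was not tested.

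Of the phosphatases, Dusp6, which acts on ERK in the cytoplasm, had 155 CPM in control and 154 in BPA, and 222 in DMBA and 211 in BPA+DMBA. As with Hras1, both libraries with DMBA were above both without. Dusp6 rose by 0.49 on the log2 scale (SE 0.0715, 1.41-fold, edgeR adjusted p = 0.0111), the largest change among the 9. Its ratio was 0.52 in DMBA against control (counting interval 0.47 to 0.58) and 0.46 in BPA+DMBA against BPA (0.39 to 0.53), and DESeq2 called it as well (adjusted p = 0.0327).

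Dusp4, a nuclear phosphatase of the same family, was at 252 CPM in control and 266 in BPA, and 215 in DMBA and 248 in BPA+DMBA. The DMBA library was the lowest, and both libraries with DMBA were below both without. The additive log2 value was -0.17 (SE 0.0784, edgeR adjusted p = 0.204), which did not pass. The ratio was -0.23 in DMBA against control (counting interval -0.28 to -0.18) and -0.10 in BPA+DMBA against BPA (-0.16 to -0.04), the opposite sign to Dusp6 in each pair. The difference between Dusp4 and Dusp6 was not tested.

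Among the inhibitors 0 of 3 passed the test for DMBA. Spred1, a membrane protein that brings the Ras GTPase-activating protein neurofibromin to Ras, was at 185 CPM in control and 186 in BPA, and 148 in DMBA and 173 in BPA+DMBA. Both DMBA libraries were lower than both without, the DMBA library most. Its log2 ratio was -0.32 in DMBA against control (counting interval -0.38 to -0.26) and -0.11 in BPA+DMBA against BPA (-0.18 to -0.04). The additive log2 value was -0.22 (SE 0.081, edgeR adjusted p = 0.129). Spred1 has the longest exons of the 9 (6784 bases), and across 13509 genes the DMBA value was lower at greater exon length (Spearman correlation across genes -0.361). With that trend removed Spred1 had a log2 value of -0.06 (adjusted p = 0.694). Without the BPA+DMBA library and with DMBA as the only term it was called (-0.32, adjusted p = 0.0245).

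Spry2, a Sprouty inhibitor of receptor signalling, was at 42.4, 43.7, 40.1 and 44.8 CPM, the narrowest range of the 9 (0.16 on the log2 scale). Its additive log2 value for DMBA was -0.02 (SE 0.0849, edgeR adjusted p = 0.882), and 0.06 when total counts alone were used for scaling. Spry4, its relative, had 24.5, 29.9, 22.8 and 34.2 CPM. Here the libraries with BPA were the higher ones, and the value for DMBA was 0.04 (SE 0.111, adjusted p = 0.823). The ratio of Spry4 was -0.10 in DMBA against control, with an interval that included equality, and 0.20 in BPA+DMBA against BPA (0.02 to 0.37).

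The ETS factors Etv4 and Etv5 had small positive values for DMBA that did not pass. Etv4 was at 43.6 CPM in control and 52.1 in BPA, and 49.5 in DMBA and 54.2 in BPA+DMBA, an additive log2 value of 0.12 (SE 0.0826, edgeR adjusted p = 0.363). Etv5 was at 33.4, 37.0, 35.7 and 38.5 CPM, a value of 0.08 (SE 0.0866, adjusted p = 0.583). Control was the lowest and BPA+DMBA the highest library for both genes, and for both the pairs with and without DMBA overlapped.

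**Figure D2:**
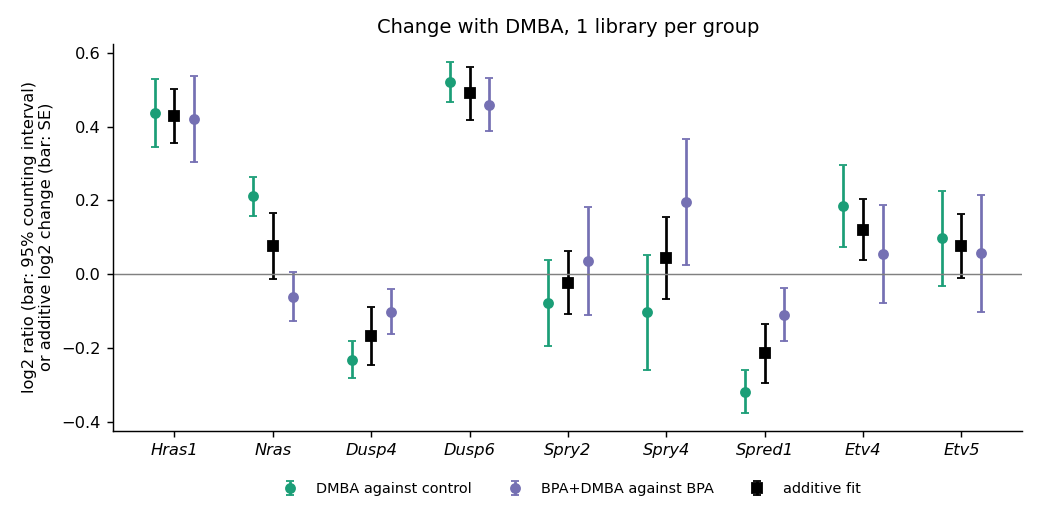
Change of each member with DMBA on the log2 scale: green, DMBA against control; purple, BPA+DMBA against BPA (bars are 95% counting intervals); black squares, the additive fit (bars are SE). Hras1 (0.43) and Dusp6 (0.49) lie clear of 0 in both pairs; Dusp4 and Spred1 lie below 0 in both without passing the test.

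In single pairs, no member reached a 2-fold difference with a counting interval excluding equality in any of the 5 pairs of libraries, 0 of 45 ratios. Over all genes 6.55% did so in DMBA against control, 3.74% in BPA+DMBA against BPA, 4.38% in BPA+DMBA against control, 0.829% in BPA against control and 1.09% in BPA+DMBA against DMBA. Counting intervals that excluded equality at any fold were common at this depth: 6 of 9 members in DMBA against control (59% of all genes), 5 of 9 in BPA+DMBA against BPA (49.5%) and 7 of 9 in BPA+DMBA against control (52.6%). These intervals cover counting error only and compare libraries, not conditions.

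The rest of the pathway was read from lists of its other genes. Of 20 genes of the Ras to ERK cascade, 0 rose with DMBA and 4 fell, against 6.67% of all genes higher and 7.72% lower, and the list's median was -0.10. The exchange factor Sos1 was at 108, 113, 86.2 and 84.4 CPM and fell by 0.37 (SE 0.0708, edgeR adjusted p = 0.0223). Braf, a Raf kinase, fell by 0.31 (adjusted p = 0.0383), Rps6ka3, a kinase downstream of ERK, by 0.31 (adjusted p = 0.0456) and Sos2 by 0.29 (adjusted p = 0.043). These calls depended on the processing: 0 of the 20 fell under total-count scaling, under DESeq2 or with the length trend removed, 1 with at least 100 counts (Sos1) and 2 under DESeq2's size factors (Sos1 and Braf). With DMBA as the only term, 1 fell without the control library, 0 without BPA and 2 without BPA+DMBA.

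Among 8 measured Ras GTPase-activating proteins, which switch Ras off, 1 rose and 4 fell, against 6.67% of all genes higher and 7.72% lower, with a median of -0.27 (all genes 0.00). Nf1, which encodes neurofibromin, was at 180 CPM in control and 190 in BPA, and 119 in DMBA and 121 in BPA+DMBA, and both libraries with DMBA were well below both without. It fell by 0.63 (SE 0.0701, edgeR adjusted p = 0.00602) and was called under every alternative run. Rasa4 was at 12.2, 14.0, 21.4 and 22.0 CPM and rose by 0.74 (SE 0.117, adjusted p = 0.0134), also under every alternative. Rasa3 was higher as well under total-count scaling, with DMBA as the only term and, in that fit, without the BPA+DMBA library. Rasa2 fell by 0.42 (adjusted p = 0.0321), Rasal1 by 0.41 (adjusted p = 0.0294) and, as the last of the 4, Rasal2 by 0.32 (adjusted p = 0.043). Nf1 was the only one of the 4 that fell under total-count scaling, under DESeq2, with the length trend removed, with the stricter filter or, with DMBA as the only term, without the BPA library.

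Of 16 further genes that passed the filter and that ERK is known to induce, 3 rose with DMBA and 0 fell, against the same 6.67% higher and 7.72% lower over all genes, with a median of 0.23 (all genes 0.00). Epha4, an ephrin receptor, had 12.7, 13.6, 38.4 and 26.2 CPM and rose by 1.29 (SE 0.165, edgeR adjusted p = 0.00843). Ier3, an immediate early gene, rose by 0.55 (adjusted p = 0.0124), and Plaur, the urokinase receptor, by 0.35 (adjusted p = 0.0317). With the length trend removed only Epha4 passed, and DESeq2 called Epha4 and Ier3. Genes that fell numbered 2 without a filter and 2 without the control library (Dusp7 and Lif in each), 1 without BPA (Egr1) and 1 without BPA+DMBA (Spred2). Spry3 had 0 counts in every library and was not tested. Among 6 other MAP kinase phosphatases 0 passed (median 0.32). Dusp2 had the largest value (0.71, adjusted p = 0.183) at 25 to 49 counts per library, and Dusp10 the next (0.48, adjusted p = 0.0886). Dusp10 was called without a filter and, with DMBA as the only term, without BPA, and together with Dusp14 without BPA+DMBA. Dusp1 was called higher without control and Dusp16 lower without DMBA.

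Upstream, 15 of 17 EGF and FGF family ligands and receptors passed the filter, of which 3 rose and 2 fell with DMBA (all genes 6.67% higher and 7.72% lower). Fgfr3, an FGF receptor, rose by 1.47 (SE 0.248, edgeR adjusted p = 0.0157) at 33 to 154 counts per library, Fgfr2 by 0.43 (adjusted p = 0.0389) and Ereg, the ligand epiregulin, by 0.41 (adjusted p = 0.0341). Fgf1 fell by 0.54 (adjusted p = 0.0135) and Erbb3, a receptor of the EGF family, by 0.34 (adjusted p = 0.0405). DESeq2 called 1 of these 5, Fgfr3, and with at least 100 counts Fgfr3 and Fgf1 passed. Fgf1 was the only one that fell under total-count scaling, DESeq2's size factors or with the length trend removed. With DMBA as the only term, 1 rose and 0 fell without the control library, 2 rose and 1 fell without BPA, 2 rose and 2 fell without DMBA, and 5 rose and 2 fell without BPA+DMBA.

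**Figure D3:**
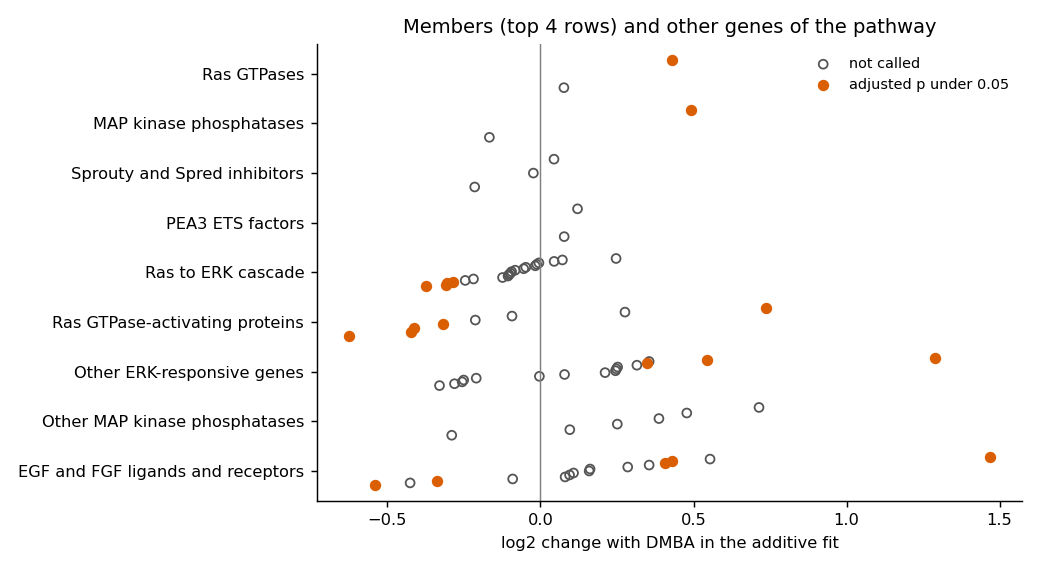
Additive log2 change with DMBA for every gene that passed the filter, 1 point per gene, in the 4 groups of members (top) and 5 lists of other pathway genes; filled points passed the edgeR test at an adjusted p of 0.05. The members span -0.22 to 0.49, while the lists reach from -0.63 (Nf1) to 1.47 (Fgfr3).

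For BPA the same fit called 0 of 9 members and 0 of 13638 genes (0%), with 304 genes (2.23%) at an unadjusted p under 0.05, and DESeq2 called 1 gene, no member. Of the 9 members 8 had values above 0, with a median of 0.12 (all genes 0.00), but no sign is a call. Spry4 had the highest value, 0.44 (SE 0.111, unadjusted p = 0.00662, edgeR adjusted p = 0.999). Its log2 ratio was 0.29 in BPA against control (counting interval 0.13 to 0.45) and 0.59 in BPA+DMBA against DMBA (0.42 to 0.76), so both libraries with BPA were higher than their partners. Etv4 had 0.20 (SE 0.0826, adjusted p = 0.999), with ratios of 0.26 (0.14 to 0.38) and 0.13 (0.01 to 0.26). The other 7 ran from -0.04 (Dusp6) to 0.14 (Dusp4), all with an adjusted p of 0.999.

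In BPA against control, the counting intervals of Dusp4, Etv4, Etv5, Nras and Spry4 lay above equality and no member's lay below it, 5 of 9 against 29.2% of all genes. In BPA+DMBA against DMBA, those of Dusp4, Etv4, Spry2, Spry4 and Spred1 lay above and those of Dusp6 and Nras below, 7 of 9 against 32.7% of all genes. In the latter pair the summed level of fibroblast markers also differed, 5080 CPM in DMBA and 8530 in BPA+DMBA, while in BPA against control it went the other way, 6240 against 8380. The summed level of 11 immediate early genes, which ERK and other signals induce within minutes, was 859 CPM in BPA and 1910 in control, and 1590 in BPA+DMBA and 1700 in DMBA. Fos and Fosb had the highest levels of the 11 in control. For DMBA, 3 of the 11 were called higher and 0 lower in the additive fit, against 6.67% and 7.72% of all genes. Those called were Jun, Egr2 and Egr3. Both summed levels with DMBA were below that of control. In DMBA against control, Fos, Fosb and Egr1 had log2 ratios of -0.34, -0.6 and -0.40. In that pair counting intervals lay above equality for 5 of the 11 and below it for 4 (59% of all genes either way). The part of the immediate early genes in the values of the members was not tested. Spry4 had the higher level with BPA in both pairs.

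**Figure D4:**
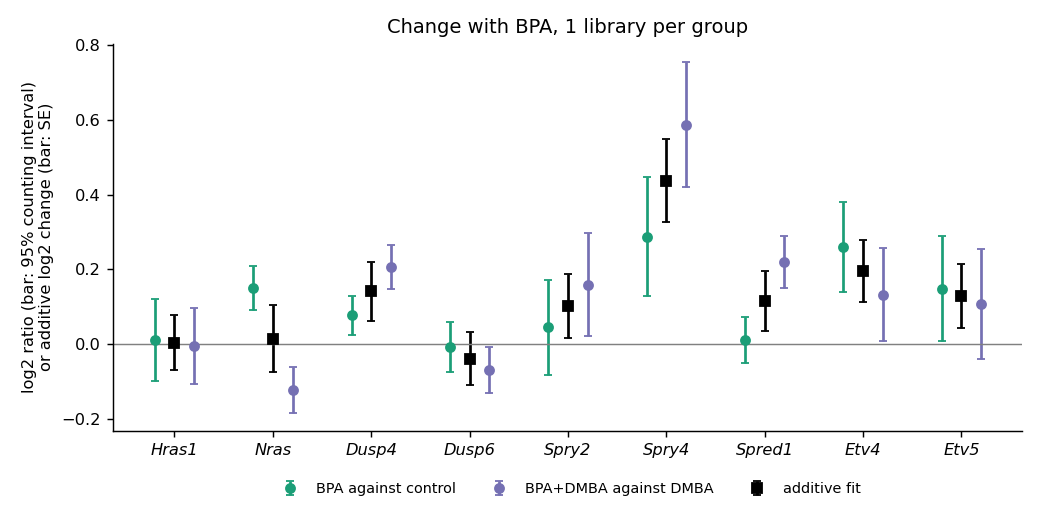
Change of each member with BPA on the log2 scale: green, BPA against control; purple, BPA+DMBA against DMBA (bars are 95% counting intervals); black squares, the additive fit (bars are SE). Spry4, Etv4 and Dusp4 lie above 0 in both pairs with their intervals. The points of Etv5, Spry2 and Spred1 lie above 0 in both pairs too, but not with both intervals. Nras lies above 0 in BPA against control and below it in BPA+DMBA against DMBA, and no additive value passed the test.

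Departure from additivity, the BPA ratio with DMBA minus the BPA ratio without it, had a counting interval excluding 0 for 4 of 9 members, against 32.4% of all genes. Nras departed by -0.27 on the log2 scale (interval -0.36 to -0.19), Spry4 by 0.30 (0.07 to 0.53), Spred1 by 0.21 (0.12 to 0.30) and Dusp4 by 0.13 (0.05 to 0.21). Hras1 (-0.02, interval -0.16 to 0.13) and Dusp6 (-0.06, -0.15 to 0.03) had intervals that included 0. The departure is also the residual of the additive fit. A small departure therefore makes a call for DMBA easier and is no separate support for the calls of Hras1 and Dusp6. With 1 library per group the departure could not be tested. The combined library against control gave Hras1 0.43 (counting interval 0.33 to 0.54), Dusp6 0.45 (0.39 to 0.52), Spry4 0.48 (0.32 to 0.65) and Etv4 0.32 (0.19 to 0.44), while Dusp4 had -0.03 (-0.08 to 0.03) and Spred1 -0.10 (-0.17 to -0.03).

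Spry4 had the widest range of the 9 over the 4 libraries, 0.59 on the log2 scale. The genes with the most similar centred profile were Neurl1a (root mean square distance 0.0248 log2 units over 4 libraries), Pycr1 (0.0329) and Arsg (0.0471), each with 121 counts or fewer per library, and 52 genes lay within a distance of 0.1. With 4 libraries such likeness describes these libraries only.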

How the data were processed

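RNA from mammospheres of 4 groups, 1 library each, was sequenced from TruSeq libraries, per the labels' protocols. The files the authors deposited hold whole, unnormalized read counts, 1 per gene symbol. CASAVA 1.8.2, HTSeq and DESeq and the genome build mm9 are listed in the submitters' processing notes. The aligner and whether strand was used in counting are not stated there or in the labels, so both were not given in the sources used here. In each file 5 closing lines name no gene and entered neither library sizes nor tests. Reads outside annotated genes were 13.5%, 13.0%, 11.9% and 11.3% of the control, BPA, DMBA and combined libraries. Reads aligned to several places were 22.9%, 23.3%, 25.6% and 25.3% in the same order, and ambiguous reads 0.435% to 0.449%. The first were thus lower, and those aligned to several places higher, in both libraries with DMBA. The part of this in the DMBA values was not tested. Every pair of libraries differed beyond sampling noise, with a chi-square of 12.1 to 71.7 for each degree of freedom.

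Genes with at least 20 counts in 1 library were kept (13638) and scaled by TMM in edgeR 4.0.16 (R 4.3.3). An additive model of BPA and DMBA was tested by quasi-likelihood using the 4 libraries, and p-values were adjusted (Benjamini-Hochberg) across every kept gene. Pair ratios used a prior count of 2 and exact 95% Clopper-Pearson intervals, which cover counting error only, as do intervals of departure. Alternatives were DESeq2 1.42.0, other scalings, filters and prior counts, single terms, leaving out libraries, and removal of the trend on exon length (GENCODE M21, matched by symbol). All 9 members are named, with up to 4 called genes per pathway list ranked by size (otherwise the 2 largest). Rasal2 and Erbb3, also called in the main fit, were named beyond these 4. The 3 genes nearest in profile to the member of widest range are named too. Genes called only under an alternative were named after their values were seen. Members and lists were chosen with earlier results of these data known. Promoters came from RefSeq (GRCm38.p6). Some marker values and sequences are not reported here.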

Additional observations from a re-analysis of the deposited data

Results flagged for a closer look

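Nras moved in opposite ways with BPA in the 2 pairs of libraries: its log2 ratio was 0.15 in BPA against control and -0.122 in BPA+DMBA against DMBA, and both counting intervals excluded equality. With 1 library per group the difference was not tested.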

How the results depend on the processing

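No paired analysis was possible because each group held 1 library. Of the 2 members called for DMBA, Hras1 and Dusp6, both were called under 2 other scalings, 2 other filters, the removed length trend, a later quasi-likelihood version (chosen after seeing the data) and DMBA as the only term, and leaving out each library gave 2 to 3. DESeq2 called 1, Dusp6. Genes called for DMBA over the table numbered 1962 (14.4% of those tested), against 840 (6.16%) with the length trend removed. Of the called genes 46.3% were higher, against 59.2% with the trend removed and 67.3% with total counts. Genes called numbered 1164 (9.97%) with at least 100 counts and 675 (5.15%) by DESeq2. With DMBA as the only term they numbered 2610, and 1049 without the control library, 1439 without BPA, 1776 without DMBA and 2728 without BPA+DMBA. For BPA they numbered 0, against 2 without a filter and 1 by DESeq2. Members called for BPA stayed at 0 throughout, as did ratios past 2-fold. Departures numbered 4, where 32.4% of all genes departed, and 6 with total counts. The share of all genes departing with total counts is not given, so that rise cannot be judged. The cause of these shifts was not tested.

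Signs turned only for values without a call. For BPA, Hras1 (0.0036) was -0.000704 with DESeq2's size factors, -0.0153 with total counts, -0.000645 by DESeq2 and -0.01 with the length trend removed, and Nras (0.014) -0.00468 with total counts and -0.00181 with the trend removed. For DMBA, Spry2 was 0.0615 with total counts. With a single term and 1 library left out, the lone library of a group is assumed to vary like the others, and values ran as follows: Spry4 for DMBA -0.239 to 0.34, Etv4 for DMBA -0.0119 to 0.249, Etv5 for DMBA -9.53e-05 to 0.15, Spry2 for DMBA -0.0927 to 0.0575, Hras1 for BPA -0.234 to 0.231, Nras for BPA -0.0906 to 0.114, Dusp6 for BPA -0.304 to 0.233, Spred1 for BPA -0.0491 to 0.277.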

Other observations

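Dusp1, a stress and ERK-induced phosphatase of the same family as Dusp4 and Dusp6, was chosen after its values were seen. It had 170 CPM in control and 82.9 in BPA, and 148 in DMBA and 137 in BPA+DMBA, so the BPA library stood apart, at a log2 ratio of -1.03 to control (95% counting interval -1.12 to -0.95). Egr1, an immediate early gene that ERK also induces, had 248, 137, 187 and 181 CPM in the same order of libraries and a ratio of -0.86 (-0.92 to -0.79). The summed level of 11 immediate early genes, Egr1 among them, was 1910, 859, 1700 and 1590 CPM. The largest in control were Fos and Fosb, at 597 and 332 CPM, against 115 and 26.3 in BPA. Counting intervals lay below equality for 10 of the 11 in BPA against control and above it for 0. Over all genes, 29.2% had an interval excluding equality in this pair, in either direction. These intervals cover counting error only and compare libraries, not conditions. Dusp6 and Dusp4 had ratios of -0.01 and 0.08 in the same pair. Neither Dusp1 nor Egr1 was called for BPA in the additive model (edgeR adjusted p = 0.999 for each).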
